A study of Mus musculus with 15 samples.

Results

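The genes described here are 10 components of the bone morphogenetic protein (BMP) pathway, chosen by symbol from the gene counts. They are the ligands Bmp2, Bmp4 and Bmp7, the receptors Bmpr1a and Bmpr2, the inhibitors Smad6 and Bambi, and the ID genes Id1, Id2 and Id3. All 10 were found among the 78298 genes of the count files, once each. Their RNA levels were compared in mouse small intestinal organoids, cultures of primary gut epithelium, that carried either a control protein or an extra copy of the transcription factor SOX9.

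The organoids came from young adult female C57BL/6J mice and were profiled by poly(A) RNA-seq in 5 conditions of 3 libraries each. Every line, the control included, was made by lentiviral transduction and kept under puromycin resistance, with the transgene driven by the weak and ubiquitous L30 promoter. Halo-NLS, the control (L30prom_V5-Halo-GDGAGLIN-NLS_IRES_Puro), carried a nuclear HaloTag without SOX9. SOX9-Halo (L30prom_Sox9-GDGAGLIN-Halo-V5_IRES_Puro) and SOX9-mEGFP (L30prom_Sox9-GDGAGLIN-mEGFP-V5_IRES_Puro) carried SOX9 joined to the HaloTag or to a green fluorescent protein. Each SOX9 line was sampled at an early passage as budding organoids (SOX9-Halo_budding, SOX9-mEGFP_budding) and at later passages as round spheroids (SOX9-Halo_spheroid, SOX9-mEGFP_spheroid). The spheroids had in addition received a fluorescent histone, H2B-mEGFP selected with Zeocin in SOX9-Halo and H2B-mScarletI selected with Geneticin in SOX9-mEGFP. Within a line, morphology, passage, this second transgene and its drug cannot be told apart. The study also placed the SOX9-mEGFP spheroids earlier in culture than the SOX9-Halo spheroids. Between the spheroids, the SOX9 construct thus cannot be told apart from passage, histone and drug. Each construct was represented by 1 line, the medium was a proprietary product whose growth factors were not listed, and the 3 libraries of a condition were described as biological replicates.

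BMPs are secreted dimers that bring type I receptors such as BMPR1A together with type II receptors such as BMPR2, after which SMAD1, SMAD5 or SMAD9 is phosphorylated and enters the nucleus with SMAD4. Smad6 and Bambi are themselves induced by the pathway in many cells and restrain it, and Id1, Id2 and Id3, among the best known BMP target genes, encode helix-loop-helix proteins that lack a DNA-binding region and hold E proteins away from DNA. In the gut, BMP activity is high in the villus and low around the crypt, and much of the ligand, Bmp4 above all, is made by the mesenchyme under the epithelium. In bulk RNA, fewer cells of a type and less RNA per cell cannot be told apart.

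Libraries held 28062722 to 40559766 reads counted in genes. The transgene check used Sox9, whose normalized counts were 515, 769 and 305 in Halo-NLS, 1336, 10537 and 6838 in SOX9-Halo_budding, 11368, 11086 and 6487 in SOX9-mEGFP_budding, 10522, 14834 and 14812 in SOX9-Halo_spheroid and 8727, 16922 and 23654 in SOX9-mEGFP_spheroid. A normalized count is the count of a library scaled to the mean effective library size. All SOX9 libraries lay above all control libraries, and SOX9-Halo_budding replicate 1 was the lowest of them. All 5 epithelial markers tested (Epcam, Cdh1, Krt8, Krt18 and Cldn7) were present in every library, whereas the summed level of 4 intestinal markers (Vil1, Cdh17, Cdx2 and Lgals4) was 4331 to 7786 in SOX9-Halo_spheroid, 102436 to 152339 in SOX9-mEGFP_spheroid and 201521 to 224572 in Halo-NLS.

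The ID genes carried the clearest pattern, so the DNA directly before their starts is shown. The 3 stretches are the 250 bases before the first base of the canonical transcript in the GRCm39 genome, read along the gene, at chr2:152577915-152578164 (plus strand) for Id1, chr12:25147283-25147532 (minus strand) for Id2 and chr4:135870558-135870807 (plus strand) for Id3. Capitals mark matches on either strand to CAGAC, the core that SMADs bind, or to ACAAT, the core that SOX proteins bind, and none of the matches overlap. A match on the other strand appears as its reverse complement.
Id1: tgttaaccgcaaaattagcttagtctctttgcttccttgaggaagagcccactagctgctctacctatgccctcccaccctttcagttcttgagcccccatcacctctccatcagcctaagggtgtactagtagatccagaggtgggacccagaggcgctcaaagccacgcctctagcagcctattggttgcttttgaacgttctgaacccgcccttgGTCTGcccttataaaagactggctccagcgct
Id2: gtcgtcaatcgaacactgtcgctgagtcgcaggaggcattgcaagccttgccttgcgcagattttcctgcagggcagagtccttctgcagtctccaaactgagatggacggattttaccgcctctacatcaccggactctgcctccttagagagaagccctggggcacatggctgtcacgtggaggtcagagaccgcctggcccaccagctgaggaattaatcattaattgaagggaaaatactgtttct
Id3: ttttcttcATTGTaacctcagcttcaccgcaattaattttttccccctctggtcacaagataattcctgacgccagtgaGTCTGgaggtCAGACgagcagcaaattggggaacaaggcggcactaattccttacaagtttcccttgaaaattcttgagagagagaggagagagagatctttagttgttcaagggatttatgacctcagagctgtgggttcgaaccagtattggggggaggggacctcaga
Id1 held 1 SMAD core, Id2 held neither core, and Id3 held 2 SMAD cores and 1 SOX core. Among 21723 promoter windows of the same length, 41.3% held the SMAD core and 27.0% the SOX core. The letters GGCGCC, known from BMP-responsive promoters, were present in 9.31% of windows and, among the members, in those of Bmpr1a (2 matches) and Bmpr2 (1 match). A match describes letters, not binding.

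Against Halo-NLS, 6 of the 10 genes rose in SOX9-mEGFP_spheroid (Bmp2, Bmp4, Bmpr2, Id1, Id2 and Id3) and 2 fell (Smad6 and Bambi), where 27.5% of the 17560 genes tested were called (15.3% higher and 12.1% lower). A gene was called when edgeR's quasi-likelihood test gave a Benjamini-Hochberg adjusted p of at most 0.01, its log2 fold change was 1 or more in size and its normalized counts averaged 10 or more. The members' median log2 fold change was 2.16, beside 0.03 over all genes tested. In SOX9-Halo_spheroid, 1 rose (Bmp4) and 3 fell (Bmp2, Bambi and Id3) against the same control, where 28.9% of all genes were called (13.6% higher and 15.3% lower), and the median was -0.18 beside -0.01. In SOX9-Halo_budding Bmp7, Smad6, Id1 and Id3 fell, where 3.75% of all genes were called (2.49% higher and 1.26% lower). In SOX9-mEGFP_budding 1 gene fell, Smad6, where 2.76% of all genes were called (1.99% higher and 0.763% lower). These 4 comparisons share the Halo-NLS libraries. Bmp4 passed the filter on low counts and reached the average of 10 only through the SOX9-mEGFP_spheroid libraries in which it was high. In SOX9-Halo_spheroid its raw counts were 12, 4 and 5 and its mean normalized count was under 10, so its call there rests on few counts. The libraries of the condition and the control did not overlap for 8 of the 10 genes in SOX9-mEGFP_spheroid (56.5% of all genes), 5 in SOX9-Halo_spheroid (54.8%), 4 in SOX9-Halo_budding (29.7%) and 2 in SOX9-mEGFP_budding (32.6%). The plot of levels by library shows all 10 genes.

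**Figure D1:**
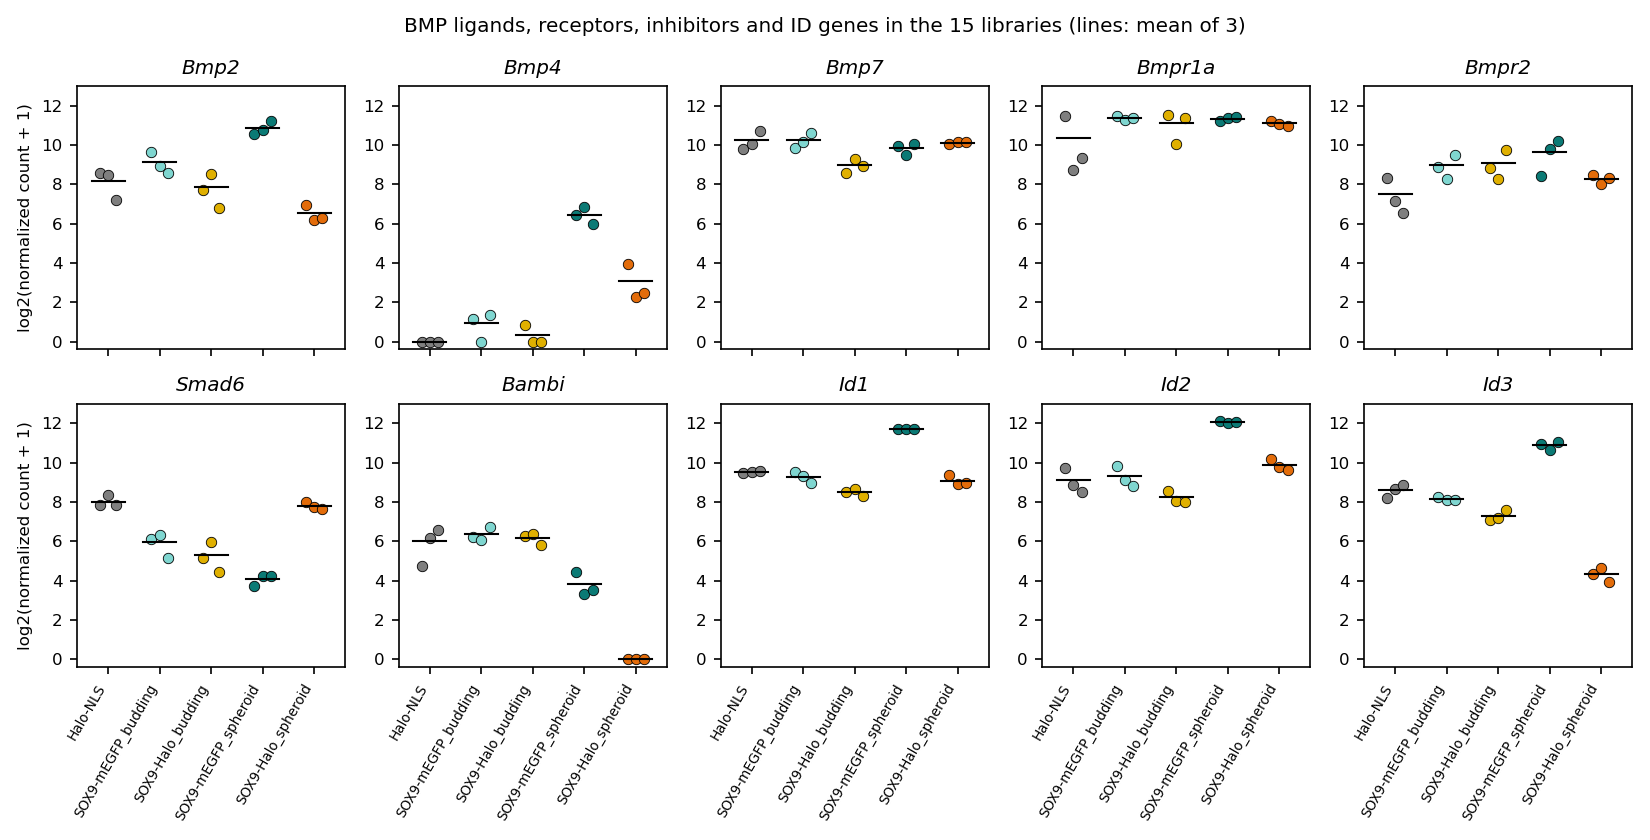
Levels of the 10 genes as log2(normalized count + 1) (vertical axes) in the 15 libraries, one panel per gene, with one point per library and a line at the mean of the 3 libraries of each condition. The 3 SOX9-mEGFP_spheroid libraries are the highest for Bmp2, Bmp4, Id1, Id2 and Id3, and Bambi is at 0 in the 3 SOX9-Halo_spheroid libraries.

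Bmp2, a ligand made by gut epithelium as well as mesenchyme (GRCm39 chromosome 2, 133394079 to 133404816, plus strand), went in opposite directions in the 2 kinds of spheroid. Its normalized counts were 374, 352 and 146 in Halo-NLS, 805, 486 and 375 in SOX9-mEGFP_budding and 210.0, 369 and 110.2 in SOX9-Halo_budding. They were 1495, 1755 and 2406 in SOX9-mEGFP_spheroid and 124, 72.8 and 75.6 in SOX9-Halo_spheroid. The first of these spheroids lay above every other library and the second below every control library. Against Halo-NLS, the log2 fold change was 2.70 (SE 0.46, adjusted p = 0.00028) in SOX9-mEGFP_spheroid and -1.68 (SE 0.46, adjusted p = 0.0072) in SOX9-Halo_spheroid. The decrease missed the call without Halo-NLS replicate 1 or 2, or SOX9-Halo_spheroid replicate 2 or 3 (log2 fold change -1.59 to -1.46, adjusted p 0.024 to 0.033), with library sizes alone at -1.40 (adjusted p = 0.014) and with the GC trend removed at -1.51 (adjusted p = 0.010). From budding to spheroid in the SOX9-mEGFP line Bmp2 rose by 1.76 on the log2 scale (adjusted p = 0.0074), a call lost without SOX9-mEGFP_budding replicate 2 or 3, or SOX9-mEGFP_spheroid replicate 1, 2 or 3 (log2 fold change 1.49 to 1.88, adjusted p 0.011 to 0.042). Between the spheroids it was 20.8-fold lower in SOX9-Halo_spheroid (log2 fold change -4.38, SE 0.50, adjusted p = 1.3e-05), in all alternatives tried.

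Bmp4, the ligand best known from the mesenchyme (chromosome 14, 46620250 to 46636745, minus strand), was nearly absent outside the spheroids. The raw counts were 0, 0 and 0 in Halo-NLS, 1, 0 and 2 in SOX9-mEGFP_budding and 1, 0 and 0 in SOX9-Halo_budding. They were 96, 112 and 66 in SOX9-mEGFP_spheroid and 12, 4 and 5 in SOX9-Halo_spheroid. Taking a library with no count at its limit of 3 counts, Bmp4 was at least 23.4-fold higher in SOX9-mEGFP_spheroid than in Halo-NLS (adjusted p = 8.2e-06) and at least 2.02-fold higher in SOX9-Halo_spheroid (adjusted p = 0.0028). Relative to the budding organoids of the same line the ratio was 88.3-fold (95% exact counting interval 29.9 to 431) in SOX9-mEGFP and 23.1-fold (95% exact counting interval 3.71 to 954) in SOX9-Halo, from totals of 3 and 1 budding counts, with adjusted p = 1.9e-05 and 0.0041. The second call was lost without SOX9-Halo_budding replicate 2 or 3, or SOX9-Halo_spheroid replicate 1 (adjusted p 0.016 to 0.017). In a fit of only the SOX9-Halo libraries Bmp4 did not pass the filter on low counts, so its change in that line was not tested there. Bmp4 was 11.8-fold lower in SOX9-Halo_spheroid than in SOX9-mEGFP_spheroid (log2 fold change -3.56, SE 0.54, adjusted p = 0.00029). The summed normalized count of 10 mesenchymal markers was 20.0 to 20.4 in SOX9-mEGFP_spheroid and 45.7 to 128 in Halo-NLS. It was 38.9 to 48.3 in SOX9-mEGFP_budding, 24.7 to 39.9999 in SOX9-Halo_budding and 75.7 to 78.2 in SOX9-Halo_spheroid. From budding to spheroid the sum fell in SOX9-mEGFP and rose in SOX9-Halo. In each condition only 1 or 2 of the 10 markers were above 3 counts in all libraries. Sums this low cannot show where the Bmp4 RNA came from. In SOX9-mEGFP_spheroid 1 of the 10, Col1a1, was above 3 counts in all libraries. In SOX9-Halo_spheroid Col1a1 and Des were. Dcn and Lum were at 0 in both kinds of spheroid. Which cells made the Bmp4 RNA was not tested. In the annotation 31.1% of the exon bases of Bmp4 overlap exons of other genes, and reads there were left uncounted as ambiguous.

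Bmp7 (chromosome 2, 172709805 to 172782410, minus strand), the remaining ligand, had the highest level per length of the 3 ligands in Halo-NLS. Its normalized counts ranged from 890.1 to 1688 in Halo-NLS, 926 to 1545 in SOX9-mEGFP_budding, 712 to 1077 in SOX9-mEGFP_spheroid and 1054 to 1129 in SOX9-Halo_spheroid. In SOX9-Halo_budding they were 381, 626 and 488, below every other library. There it fell by 1.28 on the log2 scale against Halo-NLS (SE 0.28, adjusted p = 0.0097), and it was 2.21-fold higher in SOX9-Halo_spheroid than in SOX9-Halo_budding (log2 fold change 1.15, SE 0.28, adjusted p = 0.0038). The first call was lost without Halo-NLS replicate 2 or 3, or SOX9-Halo_budding replicate 1 or 3 (log2 fold change -1.36 to -0.97, adjusted p 0.022 to 0.043) and the second without SOX9-Halo_budding replicate 1, or SOX9-Halo_spheroid replicate 2 or 3 (log2 fold change 0.98 to 1.08, adjusted p 0.016 to 0.023). With the GC trend removed they were -0.83 (adjusted p = 0.030) and 0.98 (adjusted p = 0.0030), both under the fold threshold, and the first was also lost with library sizes alone and in a fit of only those 6 libraries.

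By edgeR the receptors gave 1 call in the 8 pairwise comparisons. Bmpr1a, the main type I BMP receptor of the gut epithelium (chromosome 14, 34132687 to 34225379, minus strand), passed no pairwise test, with adjusted p from 0.13 up. Its normalized counts were 2834, 423 and 644 in Halo-NLS, 2849, 2445 and 2653 in SOX9-mEGFP_budding and 2897, 1061 and 2630.2 in SOX9-Halo_budding. They were 2352, 2614 and 2721 in SOX9-mEGFP_spheroid and 2410.4, 2145 and 2009 in SOX9-Halo_spheroid. Halo-NLS replicate 1 stood with the SOX9 libraries and apart from the other Halo-NLS libraries. Without it, Bmpr1a passed in all 4 comparisons with Halo-NLS, at log2 fold changes of 2.05 (adjusted p = 0.00025) for SOX9-Halo_spheroid, 2.27 (adjusted p = 0.00014) for SOX9-mEGFP_spheroid, 2.05 (adjusted p = 0.00095) for SOX9-Halo_budding and 2.32 (adjusted p = 0.00051) for SOX9-mEGFP_budding. With no low-count filter it passed in SOX9-mEGFP_spheroid at 1.03 (adjusted p = 0.0026) and in SOX9-mEGFP_budding at 1.08 (adjusted p = 0.0041).

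Bmpr2, the type II receptor specific to BMPs (chromosome 1, 59802544 to 59918173, plus strand), rose in SOX9-mEGFP_spheroid against Halo-NLS and passed none of the other 7 pairwise tests by edgeR. Its normalized counts were 320.2, 139 and 91.8 in Halo-NLS, 470.1, 302 and 727 in SOX9-mEGFP_budding and 447, 304 and 870.2 in SOX9-Halo_budding. They were 343, 886 and 1195 in SOX9-mEGFP_spheroid and 355, 260.1 and 314 in SOX9-Halo_spheroid. The spread within a condition was wide, and the spheroid libraries of SOX9-mEGFP did not overlap Halo-NLS. The log2 fold change was 2.14 (SE 0.54, adjusted p = 0.0047), and the call was lost without Halo-NLS replicate 2 or 3, or SOX9-mEGFP_spheroid replicate 2 or 3 (log2 fold change 1.73 to 2.06, adjusted p 0.016 to 0.026), in a fit of those 6 libraries alone at 2.08 (adjusted p = 0.024) and with the GC trend removed at 1.35 (adjusted p = 0.013). In SOX9-Halo_budding it was 1.56 (SE 0.53, adjusted p = 0.053), and without Halo-NLS replicate 1 it passed at 2.23 (adjusted p = 0.0096). With no low-count filter Bmpr2 passed in SOX9-Halo_budding at 1.59 (adjusted p = 7.2e-05), in SOX9-mEGFP_budding at 1.49 (adjusted p = 0.00026) and between the spheroids, lower in SOX9-Halo_spheroid, at -1.37 (adjusted p = 0.00046).

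Both inhibitors were called in several comparisons. Smad6, which blocks the type I receptor and SMAD1 inside the cell (chromosome 9, 63860341 to 63929793, minus strand), had normalized counts of 226, 322 and 228 in Halo-NLS and 256, 212 and 201 in SOX9-Halo_spheroid. They were 69.2, 78.9 and 34.3 in SOX9-mEGFP_budding, 35.0, 60.3 and 20.5 in SOX9-Halo_budding and 12.4, 18.0 and 18.1 in SOX9-mEGFP_spheroid. The libraries of the last 3 conditions all lay below those of the first 2. Against Halo-NLS, Smad6 fell 4.27-fold in SOX9-mEGFP_budding (log2 fold change -2.10, SE 0.38, adjusted p = 0.0037), 6.69-fold in SOX9-Halo_budding (-2.74, SE 0.39, adjusted p = 0.00086) and 15.9-fold in SOX9-mEGFP_spheroid (-3.99, SE 0.42, adjusted p = 3.2e-06). From budding to spheroid it then rose in SOX9-Halo by 2.53 (SE 0.39, adjusted p = 8.0e-05) on the log2 scale and fell further in SOX9-mEGFP, at -1.90 (SE 0.41, adjusted p = 0.0023). The call in SOX9-mEGFP_budding was lost without Halo-NLS replicate 2, or SOX9-mEGFP_budding replicate 1 or 3 (log2 fold change -2.20 to -1.81, adjusted p 0.013 to 0.018) and the call between SOX9-mEGFP spheroids and budding organoids without SOX9-mEGFP_budding replicate 2, or SOX9-mEGFP_spheroid replicate 1 (log2 fold change -1.76 to -1.69, adjusted p 0.013 to 0.014). In fits of the 6 libraries compared alone, Smad6 missed the call in both budding conditions, at -2.73 (adjusted p = 0.033) in SOX9-Halo_budding and -2.11 (adjusted p = 0.025) in SOX9-mEGFP_budding. The spheroids differed by 3.78 (SE 0.42, adjusted p = 8.7e-06), with Smad6 13.7-fold higher in SOX9-Halo_spheroid.

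Bambi, a receptor-like protein without a kinase that blocks BMP and other TGF-beta family receptors (chromosome 18, 3507871 to 3516404, plus strand), was not detected in SOX9-Halo_spheroid, where all 3 libraries had 0 counts. The raw counts were 20, 62 and 75 in Halo-NLS, 61, 64 and 134 in SOX9-mEGFP_budding, 97, 85 and 57 in SOX9-Halo_budding and 23, 9 and 11 in SOX9-mEGFP_spheroid. With the limit of 3 counts in each library at 0, the level in SOX9-Halo_spheroid was at least 21.1-fold lower than in Halo-NLS (adjusted p = 4.4e-06), at least 23.7-fold lower than in SOX9-Halo_budding (adjusted p = 3.7e-06) and at least 4.39-fold lower than in SOX9-mEGFP_spheroid (adjusted p = 0.00053). In SOX9-mEGFP_spheroid it fell 4.74-fold against Halo-NLS (log2 fold change -2.25, SE 0.47, adjusted p = 0.0019) and 6.07-fold against SOX9-mEGFP_budding (-2.60, SE 0.47, adjusted p = 0.00097). The first of these calls was lost without SOX9-mEGFP_spheroid replicate 2 or 3 (log2 fold change -2.12 to -2.05, adjusted p 0.010 to 0.011). Bambi lies on chromosome 18, whose 398 genes had a median log2 difference of 0.80 between SOX9-mEGFP_spheroid and Halo-NLS, beside 0.03 over all chromosomes, and the part of that shift in these values was not tested.

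Id1, Id2 and Id3 rose together in SOX9-mEGFP_spheroid, against both Halo-NLS and SOX9-mEGFP_budding, and these 6 calls held in every alternative tried. Id1 (chromosome 2, 152566218 to 152579544, plus strand) had normalized counts of 709.7, 744 and 769 in Halo-NLS, 726, 635 and 494 in SOX9-mEGFP_budding and 358, 401 and 317 in SOX9-Halo_budding. They were 3409.7, 3338 and 3354 in SOX9-mEGFP_spheroid and 653, 475 and 494 in SOX9-Halo_spheroid. The 3 SOX9-mEGFP_spheroid libraries lay far above the other 12 and close to each other. Id1 was 4.54-fold higher there than in Halo-NLS (log2 fold change 2.18, SE 0.20, adjusted p = 8.3e-07) and 5.44-fold higher than in SOX9-mEGFP_budding (2.44, SE 0.20, adjusted p = 5.6e-07). In SOX9-Halo_spheroid it was -0.46 (SE 0.19, adjusted p = 0.062) against Halo-NLS, which did not pass. In SOX9-Halo_budding it fell by 1.05 on the log2 scale (adjusted p = 0.0042), a call lost without Halo-NLS replicate 2 or 3, or SOX9-Halo_budding replicate 1 or 3 (log2 fold change -1.04 to -0.95, adjusted p 0.012 to 0.031) and with 4 other settings, among them the GC trend removed at -0.70 (adjusted p = 0.021).

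Id2 (chromosome 12, 25143798 to 25147282, minus strand) was higher in both kinds of spheroid than in the budding organoids of the same line. Its normalized counts were 859, 459 and 362 in Halo-NLS, 909, 562 and 442 in SOX9-mEGFP_budding and 376, 268 and 259 in SOX9-Halo_budding. They were 4449, 4159 and 4232 in SOX9-mEGFP_spheroid and 1167, 886 and 795 in SOX9-Halo_spheroid. The SOX9-Halo_spheroid libraries overlapped Halo-NLS, in which replicate 1 was the highest. From budding to spheroid Id2 rose by 2.75 (SE 0.34, adjusted p = 2.2e-05) on the log2 scale in SOX9-mEGFP and by 1.66 (SE 0.33, adjusted p = 0.00076) in SOX9-Halo. Against Halo-NLS it was 2.93 (SE 0.34, adjusted p = 8.2e-06) in SOX9-mEGFP_spheroid and 0.76 (SE 0.32, adjusted p = 0.062) in SOX9-Halo_spheroid. The second value did not pass, and without Halo-NLS replicate 1 it was 1.22 (adjusted p = 0.0037) and did. Exons of 2 other genes overlap 36.2% of the exon bases of Id2, beside 13.7% for Id1 and 11.8% for Id3, each with genes on the opposite strand, and reads there were left uncounted as ambiguous.

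Id3 (chromosome 4, 135870808 to 135873066, plus strand) parted from Id1 and Id2 in SOX9-Halo_spheroid. Its normalized counts were 294, 402 and 468 in Halo-NLS, 306, 269 and 276 in SOX9-mEGFP_budding and 136, 144 and 192 in SOX9-Halo_budding. They were 2007, 1625 and 2149 in SOX9-mEGFP_spheroid and 19.0, 23.6 and 14.4 in SOX9-Halo_spheroid. The SOX9-Halo_spheroid libraries were the lowest of all 15 and the SOX9-mEGFP_spheroid libraries the highest. Id3 was 20.3-fold lower in SOX9-Halo_spheroid than in Halo-NLS (log2 fold change -4.34, SE 0.28, adjusted p = 1.6e-08) and 8.24-fold lower than in SOX9-Halo_budding (-3.04, SE 0.27, adjusted p = 3.7e-07), and 4.97-fold higher in SOX9-mEGFP_spheroid than in Halo-NLS (2.31, SE 0.24, adjusted p = 3.0e-06). Each of these calls held in all alternatives tried. In SOX9-Halo_budding Id3 fell by 1.30 on the log2 scale (adjusted p = 0.0038), which was lost without Halo-NLS replicate 2 or 3, or SOX9-Halo_budding replicate 1 (log2 fold change -1.27 to -1.15, adjusted p 0.015 to 0.020), with library sizes alone, with the GC trend removed and in a fit of only those 6 libraries.

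**Figure D2:**
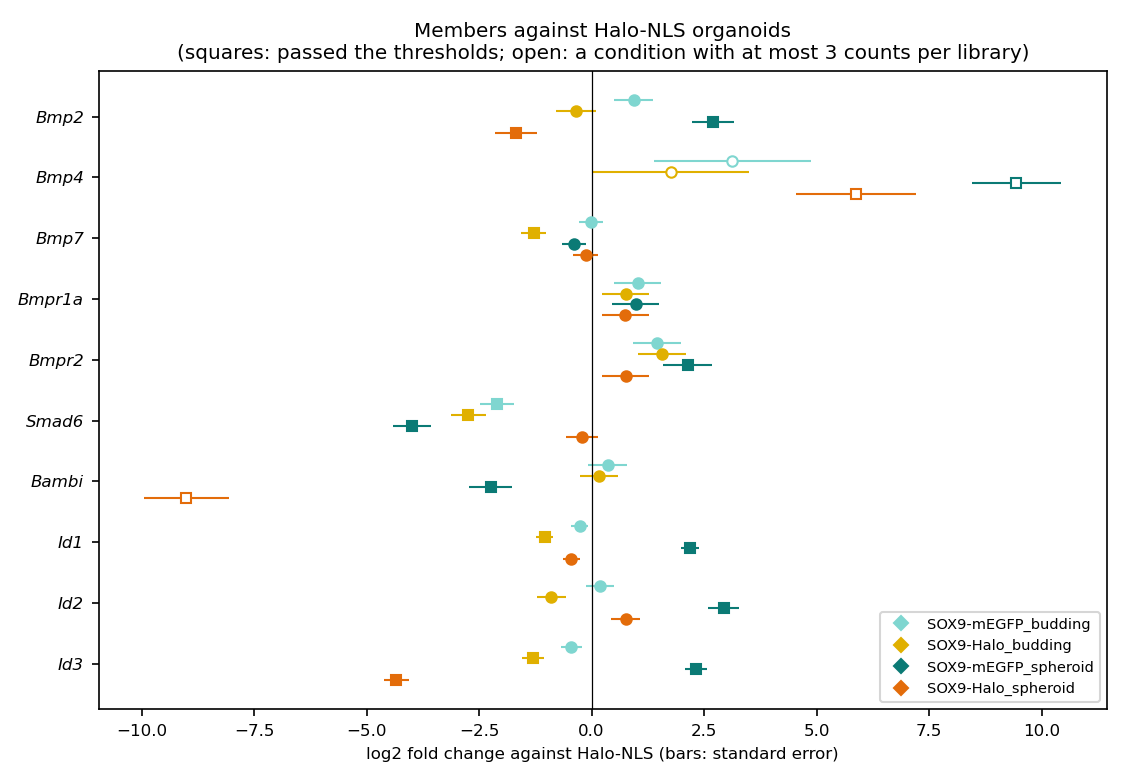
Log2 fold change of the 10 genes against Halo-NLS (horizontal axis) in the 4 SOX9 conditions, marked by colour, with bars of 1 SE from edgeR, squares for genes that passed the call and open symbols where a condition had at most 3 counts in each library, so that the size depends on the prior count. Id1, Id2 and Id3 lie between 2.18 and 2.93 in SOX9-mEGFP_spheroid and between -4.34 and 0.76 in SOX9-Halo_spheroid.

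The 2 SOX9 lines were compared at each morphology, where line cannot be told apart from passage. Between SOX9-Halo_budding and SOX9-mEGFP_budding, 0 of the 10 genes were called by edgeR, where 0.456% of all genes were called (0.29% higher and 0.165% lower), 5 had an unadjusted p under 0.05 and DESeq2 called 1. The values nearest to a call were Bmp7 at -1.27 (SE 0.28, adjusted p = 0.042) and Id1 at -0.79 (SE 0.19, adjusted p = 0.074). Bmp2, Bmp7, Id1, Id2 and Id3 did not overlap between the 2 budding conditions, all of them lower in SOX9-Halo_budding, where 12.0% of all genes did not overlap. Between the spheroids, 6 of 10 genes were lower in SOX9-Halo_spheroid and 1, Smad6, was higher, where 13.2% of all genes were called (3.59% higher and 9.58% lower). The libraries of the spheroids did not overlap for 7 of the 10 genes and 48.6% of all genes. Id1 was 6.23-fold lower (log2 fold change -2.64, SE 0.20, adjusted p = 2.6e-07), Id2 4.51-fold lower (-2.17, SE 0.33, adjusted p = 0.00017) and Id3 101-fold lower (-6.66, SE 0.30, adjusted p = 2.4e-09).

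Within each line, 6 of 10 genes were called from budding to spheroid in SOX9-Halo, 4 higher and 2 lower, where 25.3% of all genes were called (10.5% higher and 14.7% lower). In SOX9-mEGFP 7 were called, 5 higher and 2 lower, where 16.4% of all genes were called (8.55% higher and 7.88% lower). Budding and spheroid libraries did not overlap for 7 genes in SOX9-Halo (52.8% of all genes) and 7 in SOX9-mEGFP (46.0%). Bmp4 and Id2 rose and Bambi fell in both, where the Bmp4 rise in SOX9-Halo rests on raw counts of 12, 4 and 5 in the spheroids. An interaction term, the spheroid change of SOX9-Halo minus that of SOX9-mEGFP, tested whether the lines changed alike, and called 5 of 10 genes, 1 higher and 4 lower (7.39% of all genes, 1.81% higher and 5.58% lower). It cannot set the SOX9 construct apart from the passage, histone and drug of the spheroids. The difference was -5.81 (SE 0.36, adjusted p = 1.4e-07) for Id3, -1.85 (SE 0.27, adjusted p = 0.00027) for Id1, 4.42 (SE 0.56, adjusted p = 7.0e-05) for Smad6 and -3.10 (SE 0.64, adjusted p = 0.0038) for Bmp2. For Bambi it was called with adjusted p = 0.0032, the size of which depends on the prior count because of the counts of 0. Id2 did not pass, at -1.09 (SE 0.45, adjusted p = 0.15), and neither did Bmp7, at 1.52 (SE 0.39, adjusted p = 0.017). Bmp7 passed with DESeq2 at 1.54 (adjusted p = 0.0027), with no low-count filter at 1.54 (adjusted p = 0.0067), in a fit of only the libraries compared at 1.54 (adjusted p = 0.0078) and with the replicate number as a block at 1.50 (adjusted p = 0.0083). The Bmp2 difference was lost without SOX9-mEGFP_budding replicate 2 or 3, SOX9-mEGFP_spheroid replicate 3, or SOX9-Halo_spheroid replicate 2 or 3 (log2 fold change -3.04 to -2.82, adjusted p 0.011 to 0.015) and the Bambi difference with the GC trend removed (adjusted p = 0.012).

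**Figure D3:**
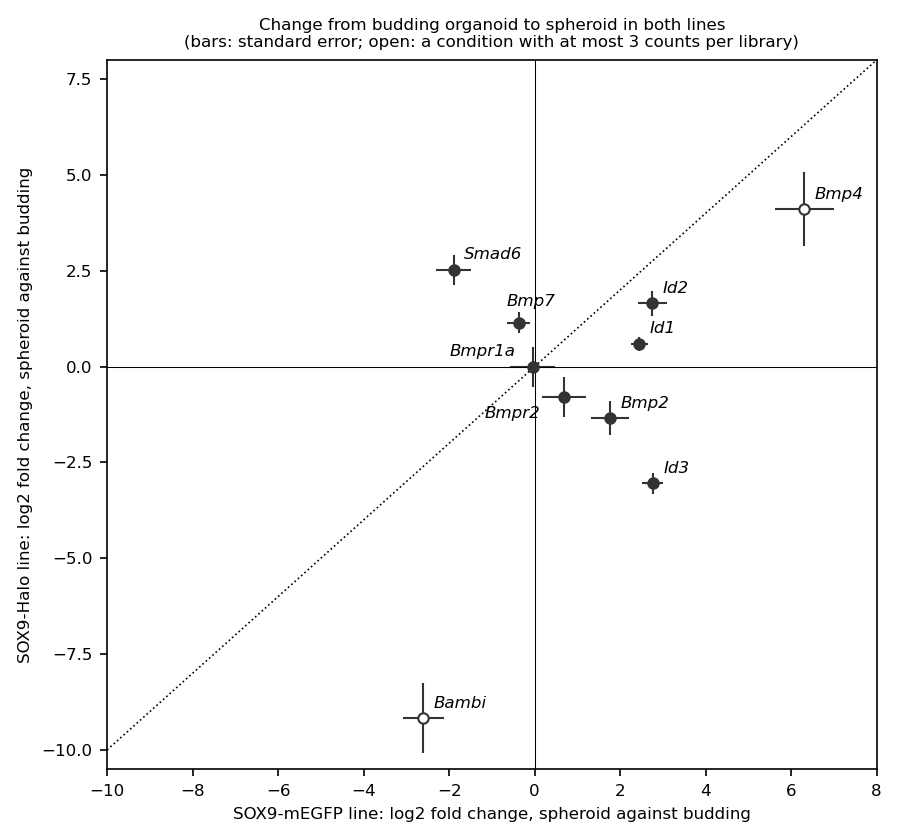
Log2 fold change from budding to spheroid in SOX9-Halo (vertical axis) against SOX9-mEGFP (horizontal axis) for the 10 genes, with bars of 1 SE, a dotted line where both lines would change alike and open points for genes with a condition of at most 3 counts in each library. Id3 lies at 2.76 in SOX9-mEGFP and -3.04 in SOX9-Halo, and Smad6 at -1.90 and 2.53.

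The other genes of the pathway were taken from 6 lists of 50 genes in all, of which 28 passed the filter on low counts. Against Halo-NLS, 7 of the 28 rose and 4 fell in SOX9-mEGFP_spheroid, where 27.5% of all genes were called, and 5 rose and 6 fell in SOX9-Halo_spheroid, where 28.9% were. In SOX9-mEGFP_budding 1 rose, Bmp6 (2.76% of all genes called), with 14 at an unadjusted p under 0.05 in edgeR and 5 called by DESeq2. In SOX9-Halo_budding edgeR called 0 (3.75% of all genes), with 12 at an unadjusted p under 0.05 and 7 called by DESeq2. Between the spheroids 1 was higher and 6 were lower in SOX9-Halo_spheroid (13.2% of all genes called). Of the calls against Halo-NLS given for these genes, fits of only the libraries compared lost Bmp6 in SOX9-mEGFP_budding, Eng, Acvr2b, Smad5, Twsg1 and Tcf12 in SOX9-mEGFP_spheroid, and Smurf1, Fst and Tcf12 in SOX9-Halo_spheroid.

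Of 11 further ligands 4 were tested, and 2 rose in SOX9-mEGFP_spheroid against Halo-NLS (15.3% of all genes called higher) while 2 fell in SOX9-Halo_spheroid (15.3% called lower). Bmp8b, a ligand known from germ cells and brown fat, had normalized counts of 30.1, 36.7 and 37.7 in Halo-NLS, 853, 1095 and 1202 in SOX9-mEGFP_spheroid and 2.37, 1.89 and 2.70 in SOX9-Halo_spheroid. It rose by 4.91 (SE 0.45, adjusted p = 9.0e-07) on the log2 scale in the first spheroid and was 15.0-fold (95% exact counting interval 6.99 to 38.5) higher in Halo-NLS than in the second (adjusted p = 5.9e-05). Bmp6, an inducer of hepcidin in the liver, had normalized counts of 11.8, 5.74 and 20.1 in Halo-NLS, 59.5, 44.7 and 77.9 in SOX9-mEGFP_budding, 172, 193 and 399 in SOX9-mEGFP_spheroid and 15.4, 13.2 and 10.8 in SOX9-Halo_spheroid. It rose by 4.34 (SE 0.47, adjusted p = 4.2e-06) in SOX9-mEGFP_spheroid and by 2.28 (SE 0.46, adjusted p = 0.0071) in SOX9-mEGFP_budding, the second lost without Halo-NLS replicate 2, or SOX9-mEGFP_budding replicate 1, 2 or 3 (log2 fold change 1.93 to 2.47, adjusted p 0.011 to 0.036). Both genes had the highest levels in the condition in which Bmp2 and Bmp4 did. Bmp3, a ligand that opposes other BMPs, went the other way in that line and was 6.40-fold lower in spheroids than in budding organoids (log2 fold change -2.68, SE 0.49, adjusted p = 0.00066). In SOX9-Halo_spheroid its counts were 1, 0 and 0, and the ratio of SOX9-Halo_budding to these was 657-fold (95% exact counting interval 118 to 25989).

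Of 9 further receptors and co-receptors 7 were tested, and 2 rose in SOX9-Halo_spheroid against Halo-NLS (13.6% of all genes called higher). In SOX9-mEGFP_spheroid 1 rose and 1 fell (15.3% of all genes called higher and 12.1% lower). Eng, a co-receptor best known from endothelium, rose from normalized counts of 2.61, 4.59 and 5.03 in Halo-NLS to 56.9, 72.8 and 70.2 in SOX9-Halo_spheroid (log2 fold change 3.98, SE 0.39, adjusted p = 8.7e-07) and to 15.1, 12.0 and 14.3 in SOX9-mEGFP_spheroid (1.72, SE 0.42, adjusted p = 0.0035). The summed level of the endothelial markers Pecam1, Cdh5 and Kdr was 1.18 to 3.60 in SOX9-Halo_spheroid, 0 to 5.01 in SOX9-mEGFP_spheroid and 24.8 to 33.9 in Halo-NLS. It was 8.50 to 14.5 in SOX9-mEGFP_budding and 9.76 to 24.3 in SOX9-Halo_budding. The summed level of the immune markers Ptprc, Cd3e and Cd68 was 103 to 271 in SOX9-Halo_spheroid, 125 to 194 in SOX9-mEGFP_spheroid and 21.8 to 91.8 in Halo-NLS. For these markers it was 36.3 to 65.6 in SOX9-mEGFP_budding and 37.1 to 48.6 in SOX9-Halo_budding. In each condition 1 of the 3 immune markers was above 3 counts in all libraries. Which cells made the Eng RNA was not tested. The smaller of these calls was lost without Halo-NLS replicate 1 or 2, or SOX9-mEGFP_spheroid replicate 1 or 3 (log2 fold change 1.51 to 1.82, adjusted p 0.011 to 0.014), with DESeq2 at 1.72 (adjusted p = 0.018) and with no low-count filter at 1.79 (adjusted p = 0.022). Rgma, a BMP co-receptor, rose in SOX9-Halo_spheroid by 3.00 (SE 0.53, adjusted p = 0.00027). The main fit did not call Rgma in the SOX9-mEGFP conditions against Halo-NLS. In SOX9-mEGFP_budding it passed in several alternatives, among them DESeq2 at 2.27 (adjusted p = 0.0020) and the GC trend removed at 2.65 (adjusted p = 0.0038). In SOX9-mEGFP_spheroid it passed with the replicate block at 1.39 (adjusted p = 0.0077) and with the GC trend removed at 1.87 (adjusted p = 0.0067). The type II receptor Acvr2b fell in SOX9-mEGFP_spheroid by 1.11 (adjusted p = 0.0060). This call was lost without Halo-NLS replicate 2 or 3, or SOX9-mEGFP_spheroid replicate 1 or 2 (log2 fold change -1.13 to -0.96, adjusted p 0.020 to 0.030). It was also lost with library sizes alone at -0.85 (adjusted p = 0.021), with no low-count filter at -1.05 (adjusted p = 0.024) and with the GC trend removed at -0.93 (adjusted p = 0.0066). The most abundant of the list, the co-receptor Rgmb and the type II receptor Acvr2a, were not called by edgeR in the 8 pairwise comparisons. DESeq2 called Rgmb against Halo-NLS in SOX9-mEGFP_budding at 1.44 (adjusted p = 0.00032) and in SOX9-Halo_budding at 1.07 (adjusted p = 0.0081). Without Halo-NLS replicate 1, Acvr2a passed in SOX9-mEGFP_spheroid at 2.19 (adjusted p = 0.00038) and in SOX9-Halo_budding at 2.22 (adjusted p = 0.0012). Acvr2a, like Bmpr1a, had Halo-NLS normalized counts of 527, 147 and 157, with replicate 1 apart from the other two.

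Of 7 further SMADs and their ubiquitin ligases 6 were tested, and 1 rose in each spheroid against Halo-NLS. Of all genes, 15.3% were called higher in SOX9-mEGFP_spheroid and 13.6% in SOX9-Halo_spheroid. Smurf1, a ligase that marks BMP SMADs for degradation, rose in SOX9-Halo_spheroid by 1.11 (SE 0.27, adjusted p = 0.0030), which was lost without Halo-NLS replicate 1, or SOX9-Halo_spheroid replicate 2 or 3 (log2 fold change 0.87 to 1.10, adjusted p 0.0079 to 0.011). Smad5, which carries the BMP signal, rose in SOX9-mEGFP_spheroid by 1.43 (SE 0.32, adjusted p = 0.0020), lost without Halo-NLS replicate 2, or SOX9-mEGFP_spheroid replicate 2 (log2 fold change 1.27 to 1.31, adjusted p 0.011 to 0.012). Smad7, the inhibitor related to Smad6, had normalized counts of 309, 269 and 167 in SOX9-mEGFP_budding and 536, 469.6 and 711 in SOX9-mEGFP_spheroid, where Smad6 was lowest. Its change from budding to spheroid was 1.21 (SE 0.31, adjusted p = 0.0086) and was lost without any one of the 6 libraries compared (log2 fold change 0.93 to 1.39, adjusted p 0.012 to 0.055), with RLE size factors at 1.18 (adjusted p = 0.012) and in a fit of only those 6 libraries at 1.18 (adjusted p = 0.013). Smad4, the partner of all these SMADs, was not called by edgeR and had condition means from 1973 to 3049. Smad7 and Smad4 lie on chromosome 18 as Bambi does, where the median log2 difference between SOX9-mEGFP_spheroid and SOX9-mEGFP_budding was 0.44.

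Of 15 secreted antagonists 5 were tested. Noggin (Nog) had 0 counts in all 15 libraries and Grem1 at most 3. Fst, follistatin, which binds activins and some BMPs, had normalized counts of 3.92, 3.44 and 17.6 in Halo-NLS, 143, 153 and 122 in SOX9-mEGFP_spheroid and 36.7, 37.8 and 43.2 in SOX9-Halo_spheroid. It rose by 4.05 (SE 0.53, adjusted p = 2.6e-05) in the first spheroid and by 2.23 (SE 0.53, adjusted p = 0.0030) in the second, the latter lost without Halo-NLS replicate 1 or 2, or SOX9-Halo_spheroid replicate 3 (log2 fold change 1.86 to 2.14, adjusted p 0.011 to 0.015) and with the GC trend removed at 1.79 (adjusted p = 0.012). Nbl1, a relative of gremlin, fell in both, by 2.90 (adjusted p = 0.00018) and 3.48 (adjusted p = 3.9e-05) on the log2 scale. The main fit did not call it in the budding conditions. DESeq2 called it lower there, at -1.88 (adjusted p = 0.0023) in SOX9-Halo_budding and -1.71 (adjusted p = 0.0066) in SOX9-mEGFP_budding. Twsg1, which modulates the binding of BMPs by chordin, rose in SOX9-mEGFP_spheroid by 1.35 (SE 0.28, adjusted p = 0.0012), and in Halo-NLS it had normalized counts of 965, 498 and 352. Outside the main fit, Twsg1 passed in SOX9-Halo_budding with DESeq2 at 1.06 (adjusted p = 0.0027). In SOX9-Halo_spheroid it passed in several alternatives, among them without Halo-NLS replicate 1 at 1.50 (adjusted p = 3.5e-05). Dand5 was not called by edgeR and had normalized counts of 50.5 to 75.8 in Halo-NLS.

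Of 5 further target genes 3 were tested, of which 1 fell in SOX9-mEGFP_spheroid (12.1% of all genes called lower) and 2 fell in SOX9-Halo_spheroid (15.3%) against Halo-NLS. Id4, the remaining ID gene, had raw counts of 10, 15 and 7 in Halo-NLS, 27, 24 and 59 in SOX9-mEGFP_budding, 41, 36 and 12 in SOX9-Halo_budding, 1, 0 and 1 in SOX9-mEGFP_spheroid and 0, 0 and 0 in SOX9-Halo_spheroid. It fell from budding to spheroid in both lines (adjusted p = 6.4e-05 in SOX9-mEGFP and 2.7e-05 in SOX9-Halo), by a ratio of 56.9-fold (95% exact counting interval 15.4 to 476) in SOX9-mEGFP. Atoh8, a helix-loop-helix factor induced by BMP in liver, had normalized counts of 15.7, 12.6 and 64.1 in Halo-NLS, 126, 128 and 267 in SOX9-mEGFP_spheroid and 0 in all 3 SOX9-Halo_spheroid libraries, so that like Id3 it was highest in the first spheroid and lowest in the second. It was at least 57.3-fold lower in SOX9-Halo_spheroid than in SOX9-mEGFP_spheroid (adjusted p = 9.1e-05), and its value in SOX9-mEGFP_spheroid against Halo-NLS, 2.49 (SE 0.70, adjusted p = 0.010), did not pass in edgeR's fit. It passed with DESeq2 at 2.47 (adjusted p = 0.0023), with the replicate number as a block at 2.73 (adjusted p = 3.6e-05), with no low-count filter, with library sizes alone, with the GC trend removed and without Halo-NLS replicate 3 (adjusted p 2.9e-08 to 0.0085 over these). Of the 3 E proteins that ID proteins bind, Tcf3 fell in both spheroids against Halo-NLS, at -1.34 (SE 0.24, adjusted p = 0.00036) in SOX9-mEGFP_spheroid and -1.19 (SE 0.24, adjusted p = 0.00071) in SOX9-Halo_spheroid. Tcf12 rose, at 1.44 (SE 0.30, adjusted p = 0.0012) and 1.16 (SE 0.30, adjusted p = 0.0047). With the GC trend removed all 4 of these E protein calls were lost, and that of Tcf3 in SOX9-Halo_spheroid also with library sizes alone at -0.89 (adjusted p = 0.0049). The Tcf12 call in SOX9-Halo_spheroid was lost without Halo-NLS replicate 2 or 3, or SOX9-Halo_spheroid replicate 1, 2 or 3 (log2 fold change 0.91 to 1.22, adjusted p 0.010 to 0.024).

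**Figure D4:**
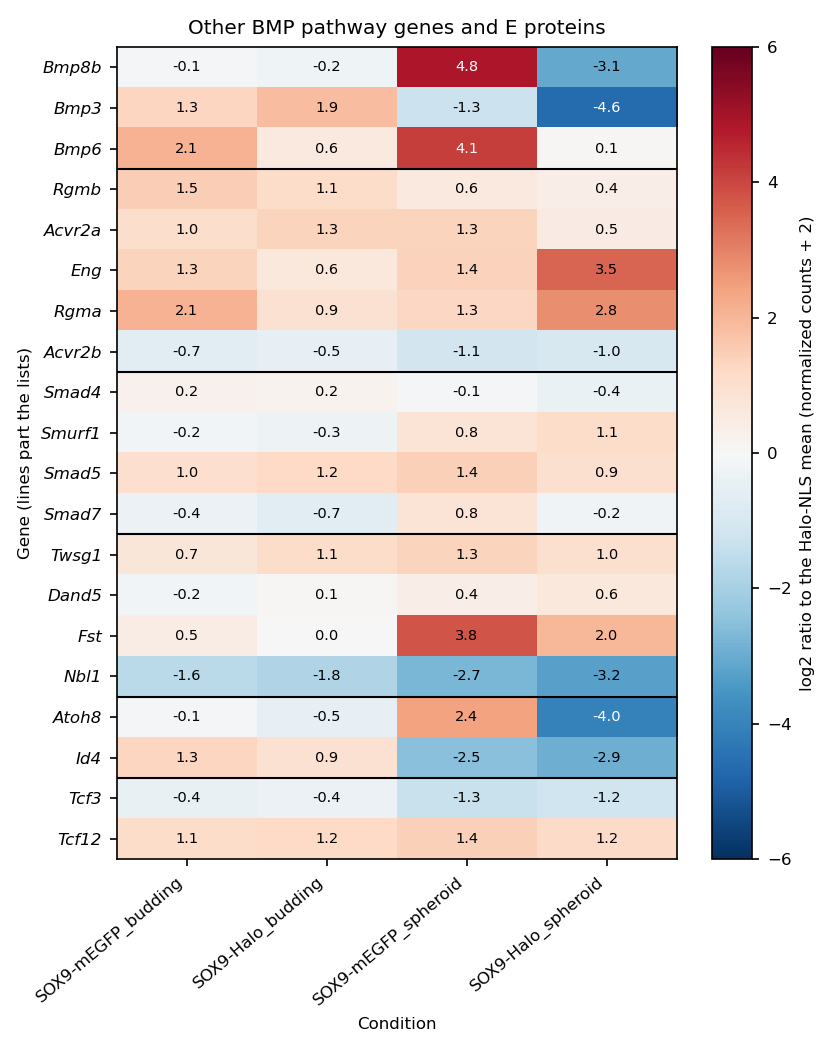
Heat map of the 20 genes named from the 6 further lists (vertical, lists parted by lines) in the 4 SOX9 conditions (horizontal), with colour and number giving the log2 ratio of the mean normalized count + 2 to that of Halo-NLS, which is not the fitted fold change and carries no test. Bmp8b, Bmp6 and Fst are the darkest red in SOX9-mEGFP_spheroid, and Bmp3, Atoh8 and Bmp8b are blue in SOX9-Halo_spheroid.

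Compared per length, as CPM (counts scaled to library size) per kilobase of exon, Id1 had the highest level of the 10 genes in Halo-NLS, at 12.4. Bmp7 followed at 8.16, Id3 at 6.45, Bmpr1a at 4.99 (SD 5.11) and Id2 at 4.78. The order of Id3, Bmpr1a and Id2 is uncertain, as Bmpr1a varied widely between the Halo-NLS libraries. The length also counts exon bases shared with other genes, where reads were left uncounted. These were 36.2% for Id2, 11.8% for Id3 and 9.47% for Bmpr1a. Smad6 at 2.17, Bmp2 at 1.87, Bambi at 0.371 and Bmpr2 at 0.303 were lower, and Bmp4 had no counts. In SOX9-mEGFP_spheroid the 3 ID genes stood at 56.5, 36.6 and 32.0, above the ligand Bmp2 at 12.1. In SOX9-Halo_spheroid Id1 was at 9.07 and Id2 at 8.11, but Id3 at 0.316. In the order of conditions by mean level, Id1 and Id3 were highest in SOX9-mEGFP_spheroid, followed by Halo-NLS, SOX9-mEGFP_budding and, for Id3, SOX9-Halo_budding and SOX9-Halo_spheroid, for Id1 SOX9-Halo_spheroid and SOX9-Halo_budding. Among the neighbours in that order, only the first step was past an adjusted p of 0.01 for Id1, and only the first and the last for Id3. For Id2, Bmp2 and Bmp4 too only the first step passed, for Smad6 the second and for Bambi the third and the last, whereas for Bmp7, Bmpr1a and Bmpr2 no neighbouring conditions differed by that measure.

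**Figure D5:**
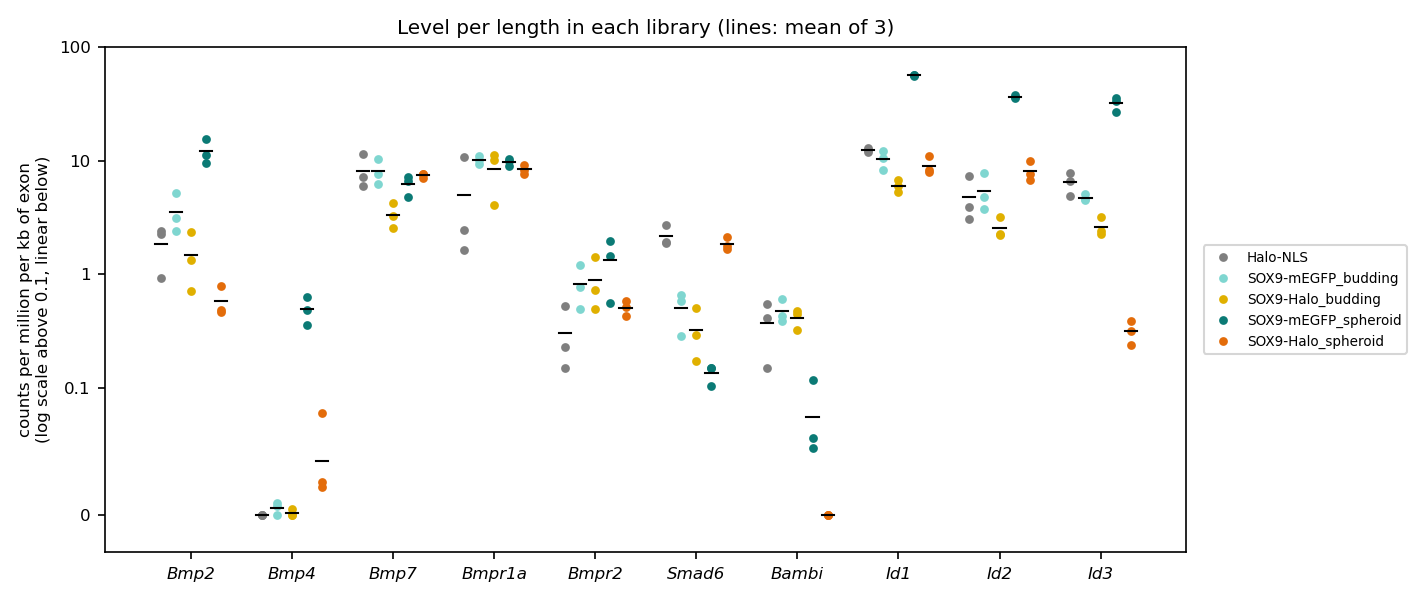
Level of the 10 genes in CPM per kilobase of exon (vertical axis, log scale above 0.1 and linear below) in each library, with one point per library coloured by condition and a line at the mean of 3. Mean Id3 levels span 0.316 to 32.0 and mean Bmpr1a levels 4.99 to 10.2.

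The genes with the profile most like each ID gene were found from the root mean square difference of log2(normalized count + 2), centred over the 15 libraries. For Id1 these were Slc39a4, a zinc transporter, at 0.32, the transcription factor Maff at 0.33 and the MAP kinase phosphatase Dusp6 at 0.39, and Id2 stood at 0.55. For Id2 they were Ero1a at 0.43, Apol7a at 0.44 and the pore-forming protein Gsdmd at 0.52. For Id3 the nearest genes were farther off, with Epas1 at 0.87, Arhgef17 at 0.90 and Hif3a at 0.91, and Id1 at 1.50. Among the ID genes, Id1 and Id2 were thus the closest pair and Id3 the most distant from both. The libraries of a condition share their culture, so the 15 points are not independent.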

How the data were processed

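Poly(A) RNA-seq was available for 15 libraries in 5 conditions of 3, grouped by their labels. The authors trimmed paired reads with cutadapt 4.5, aligned them with STAR to mm39 and deposited raw counts per gene from HTSeq 2.0.2 without using strand, keeping uniquely mapped reads. Reads in no gene were 1.83% to 6.09% and ambiguous reads, such as those in exons of 2 genes, 9.65% to 13.6% of each library; these entries were left out. Tables of the authors' own comparisons were not used. Gene positions were read from the GRCm39 annotation, which held 78168 of 78298 genes.

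Counts were fitted with edgeR 4.0.16 (R 4.3.3) across all 15 libraries with 1 coefficient per condition, TMM scaling and the default expression filter, which kept 17560 genes. The SE is the log2 fold change divided by the root of F. Thresholds follow the study's methods, which used DESeq2; DESeq2 1.42.0 was an alternative here. Alternatives also covered RLE factors, library sizes alone, no filter, a replicate block, only the libraries compared, other thresholds and leaving out each library; removal of each library's GC trend and a block within the SOX9-Halo line were chosen after seeing the data. The script was tested on simulated data. Intervals and limits of 0 cover counting error only.

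The members and lists were chosen with earlier results of these data known. All 10 members are named; of each further list the 2 genes with the highest mean and up to 3 called most often are named, and for each ID gene the 3 genes of nearest profile with a mean of at least 100. Libraries of a condition correlated at r = 0.93 to 0.99 over log2 CPM. Deviations from the condition mean of same-numbered SOX9-Halo_budding and SOX9-Halo_spheroid libraries correlated at r = 0.40, 0.23 and 0.34 over 11054 genes. Of the 10 pairs of conditions this was the one where all 3 exceeded 0.1, so replicate numbers were taken to pair these. The labels do not say what a number marks. Single same-numbered libraries of other conditions correlated more strongly. The r was 0.82 for replicate 2 of Halo-NLS and SOX9-Halo_budding, and 0.74 for replicate 3 of SOX9-mEGFP_budding and SOX9-Halo_budding. Over all 30 same-numbered pairs r ranged from -0.32 to 0.82.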

Additional observations from a re-analysis of the deposited data

Results flagged for a closer look

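For 5 of the 10 genes the spheroid change was unlike in the 2 SOX9 lines, by edgeR's test of the interaction over 15 libraries, which called 7.39% of all genes. As the change in SOX9-Halo minus that in SOX9-mEGFP on the log2 scale, the difference was -5.81 (SE 0.36, adjusted p = 1.4e-07) for Id3, which fell in SOX9-Halo and rose in SOX9-mEGFP with no overlap between budding and spheroid libraries in either line. For Smad6 it was 4.42 (SE 0.56, adjusted p = 7.0e-05), with the opposite directions. For Bmp2 it was -3.10 (SE 0.64, adjusted p = 0.0038) and for Id1 -1.85 (SE 0.27, adjusted p = 0.00027). From budding to spheroid both were called higher in SOX9-mEGFP and not called in SOX9-Halo. In SOX9-Halo spheroids Bmp2 was lower than in budding organoids by 1.34 (adjusted p = 0.028) and Id1 higher by 0.59 (adjusted p = 0.022). Against Halo-NLS, Bmp2 was called lower in SOX9-Halo_spheroid. For Bambi, lower in both lines, it was -6.57 (SE 1.25, adjusted p = 0.0032), a fitted value that depends on the prior count.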

How the results depend on the processing

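Of the 42 member calls, 28 held in every alternative and none reversed; of 578 values 60 lost the call. The 24 uncalled member values given kept their side of the thresholds in every alternative in 12 cases. For the further lists, 32 of 49 calls held throughout. In SOX9-Halo_budding against Halo-NLS the 4 members called became 1 with library sizes alone, 1 with the GC trend removed, 0 in a fit of only these libraries and 1 to 6 when a library was left out. In SOX9-mEGFP_budding the 1 became 3 with no filter, 0 in a fit of only these libraries and 0 to 2 when a library was left out. Between the budding conditions the 0 became 1 with DESeq2, 2 with no filter and 1 at an adjusted p of 0.05. The cause was not tested. Over all genes, SOX9-Halo_budding against Halo-NLS had 659 calls, and 1625 with DESeq2, 1178 with library sizes alone (66.5% higher becoming 90.7%), 2357 with no filter, 5 in a fit of only these libraries, 2071 at 0.05 and 201 to 2370 when a library was left out, the highest without Halo-NLS replicate 1. SOX9-mEGFP_budding had 484, and 1238, 728 (72.3% becoming 85.2%), 1991, 103, 1585 and 216 to 2184. Between the budding conditions 80 became 195 with DESeq2, 280 with no filter, 19 in a fit of only these libraries, 172 at 0.05 and 46 to 101 when a library was left out, and the interaction went from 1297 to 2058 at 0.05. Library sizes alone raised the median log2 fold change of all genes against Halo-NLS by 0.24 to 0.30 and the higher share of calls from 47.1% to 58.2% in SOX9-Halo_spheroid and from 55.8% to 69% in SOX9-mEGFP_spheroid, and no called member changed direction. Calls rest on counts of 3 or fewer a library for Bmp4 outside the spheroids and Bambi in SOX9-Halo_spheroid, which limits the size of these changes. With the replicate number as a block, no call of a member was lost in 8 pairwise comparisons, and the interaction called 6 members rather than 5, Bmp7 being added. In a fit of only the 6 SOX9-Halo libraries, where Bmp4 did not pass the filter, 5 members were called with the block and 5 without it, and 4376 genes with the block against 4164 without it.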
